A study of Mus musculus with 3 samples.

Results

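C-type lectin receptors are membrane proteins with which phagocytes sense glycans, glycolipids and material from damaged cells. The 10 genes described here were chosen by symbol from the 46615 measured genes of at least 300 nt: Clec4e (Mincle), Clec4d, Clec4n (Dectin-2), Clec7a (Dectin-1), Clec5a, Clec10a, Clec12a, Clec4a1, Clec4a2 and Clec4a3. All 10 were found in each of the 3 libraries. The libraries hold RNA bound to chromatin, in which newly made and unfinished transcripts are common, after removal of ribosomal RNA, from bone marrow-derived macrophages of C57BL/6J mice. These cells are primary phagocytes grown from marrow, and all of them had received 100 ng/ml Lipid A, the part of lipopolysaccharide that activates TLR4, for 25 min. The labels record neither sex nor age, and they give no genotype beyond the strain. The 3 libraries, labelled biological replicates 1, 2 and 3, form 1 group and were made from 1000, 250 and 500 ng of RNA. No unstimulated sample is analysed here, so no level below shows that a gene was induced. All 3 carry the same donor label and are not stated to come from separate animals. The p-values therefore measure spread between these samples, which may be technical, and they rest largely on variance estimated across all genes tested.

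Receptors of this family signal along different routes. Mincle, Clec4d and Dectin-2 couple to the Fc receptor gamma chain (Fcer1g), Clec5a couples to DAP12 (Tyrobp), and Dectin-1 carries a signalling motif in its own tail. These routes recruit the kinase Syk and, through Prkcd, the Card9, Bcl10 and Malt1 scaffold that activates NF-kB. Clec12a and Clec4a2 carry inhibitory motifs that recruit phosphatases, and Clec10a binds galactose-type sugars and takes up its ligands. In mouse macrophages Mincle is known as a gene that responds to lipopolysaccharide, and Clec4d as its partner at the cell surface.

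The gene tables held 13525994, 19230763 and 19207049 expected counts in replicates 1, 2 and 3. Genes of the ribosomal DNA locus took 8.46%, 27.1% and 23.1% of them. All 8 macrophage markers reached 10 TPM (a level per transcript length, scaled to the same total in each library), with Csf1r, the receptor for the growth factor of these cells, at 535 ± 152 TPM (SD, n = 3) and Adgre1 (F4/80) at 226 ± 57.9 TPM. Their summed level was 2200, 1360 and 1540 TPM in replicates 1, 2 and 3. Of 10 neutrophil markers 2 reached 1 TPM, led by Ngp at 1.87 TPM. Ly6g had 0 counts in every library, and S100a8 had 0, 2 and 2 counts. The summed neutrophil level was 5.27, 4.85 and 2.94 TPM. Of 6 dendritic cell markers 2 reached 1 TPM, Batf3 at 6.07 TPM and Zbtb46 at 1.95 TPM, while Flt3 stood at 0.105 TPM, and the summed level was 9.28, 9.65 and 7.80 TPM. Of 5 monocyte markers only Ccr2 reached 1 TPM, at 1.10 TPM, and Ly6c2 had 0, 1 and 1 counts. The summed monocyte level was 2.20, 0.728 and 1.05 TPM. In such bulk libraries fewer cells of a type and less RNA per cell cannot be told apart.

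Clec4d and its partner Clec4e had the highest means among the 10 receptors. In the TPM of the RSEM-type table, used here, the second place of Clec4e rests on replicate 1. In the kallisto-type table Clec4e had 558, 145 and 210 TPM in replicates 1, 2 and 3, second to Clec4d in every library. Clec4d had 1170, 512 and 591 TPM in replicates 1, 2 and 3. Its mean was 757 ± 357 TPM (SD, n = 3), rank 67 among all genes. Clec4e had 383, 66.6 and 114 TPM, a mean of 188 ± 171 TPM and rank 600. Replicate 1 was the highest library for both genes and replicate 2 the lowest. In replicate 2 Clec4e lay below Clec12a (99.0 TPM) and Clec7a (85.8 TPM). Without replicate 1 it had a mean of 90.3 TPM, against 103 TPM for Clec12a. Its rank among all genes was 288, 1899 and 1086 in replicates 1, 2 and 3. The levels of Clec4d and Clec4e did not overlap, and Clec4d was higher in 3 of 3 libraries, with a ratio of means of 4.03.

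In the RSEM-type table that order depends on the gene length used. There Clec4e held more counts than Clec4d in every library, 8801, 2538 and 3834 expected counts against 3735, 2434 and 2798. In the kallisto-type table it did so in replicate 1 only, with 11277, 3691 and 5401 estimated counts against 9618, 7866 and 8337. Most RSEM counts of Clec4e were assigned to long transcripts that keep an intron, which raises the length its counts are divided by. Of the Clec4d counts, 48.8% lay on Clec4d-202, of 593 nt against 1323 nt for the coding Clec4d-201, which lowers the length used for Clec4d. Per kilobase of merged annotated exons the ratio of Clec4d to Clec4e was 1.78. In CPM (counts scaled to library size), which use no length, it was 0.572, so that Clec4e stood above Clec4d.

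Clec4n, the third receptor of the Fc receptor gamma chain route, had 170, 37.0 and 75.8 TPM, on average 94.4 ± 68.6 TPM. Its libraries spread nearly as widely as those of Clec4e, with replicate 1 again highest and replicate 2 lowest. Dectin-1, the beta-glucan receptor encoded by Clec7a, had 135, 85.8 and 91.2 TPM and a mean of 104 ± 26.8 TPM. Clec5a, which pairs with DAP12, had 24.8, 4.60 and 6.87 TPM and a mean of 12.1 ± 11.1 TPM. Its mean without replicate 1 was 5.74 TPM. Clec10a had 23.4, 20.4 and 23.7 TPM and a mean of 22.5 ± 1.82 TPM. Its coefficient of variation of 8.1% was the smallest of the 10 genes, against 91.5% for Clec5a and 90.9% for Clec4e.

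The inhibitory receptor Clec12a had 209, 99.0 and 106 TPM, a mean of 138 ± 61.5 TPM. Clec4a2 (DCIR), which also carries an inhibitory motif, was the lowest of the 10 with 9.19, 4.71 and 6.63 TPM and a mean of 6.84 ± 2.25 TPM. Its relatives Clec4a3 and Clec4a1 stood at 32.0 ± 12.3 and 31.1 ± 17.6 TPM. Clec4a3 had 46.1, 23.2 and 26.6 TPM in replicates 1, 2 and 3, and Clec4a1 had 51.1, 18.2 and 23.9 TPM. The libraries of this pair of genes overlapped, and their order held in 2 of 3 libraries.

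From highest to lowest the means ran Clec4d, Clec4e, Clec12a, Clec7a, Clec4n, Clec4a3, Clec4a1, Clec10a, Clec5a and Clec4a2. Among the 9 pairs of neighbours in that order, the libraries of Clec4d and Clec4e alone did not overlap. Within single libraries the order of 3 pairs held in 3 of 3 libraries, and that of the other 6 pairs in 2 of 3. The order changed with the table. The kallisto-type table gave Clec4n 162 TPM, above Clec12a at 118 and Clec7a at 83.7, and placed Clec4a1 at 30.1 above Clec4a3 at 25.0. It also gave Clec4e 304 and Clec4a2 10.6 TPM. Without replicate 1 the mean of Clec4n was 56.4 TPM. The 10 genes had a median of 63.2 TPM, against 11.5 TPM over the 15332 genes at 1 TPM or more. They and the further lists below were chosen with earlier results of these data known, so such comparisons are descriptions only. Of the 10 receptors 9 reached 10 TPM and 4 reached 100 TPM. Over all genes 8186 reached 10 TPM, which is 53.4% of those at 1 TPM or more, and 1376 reached 100 TPM.

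**Figure D1:**
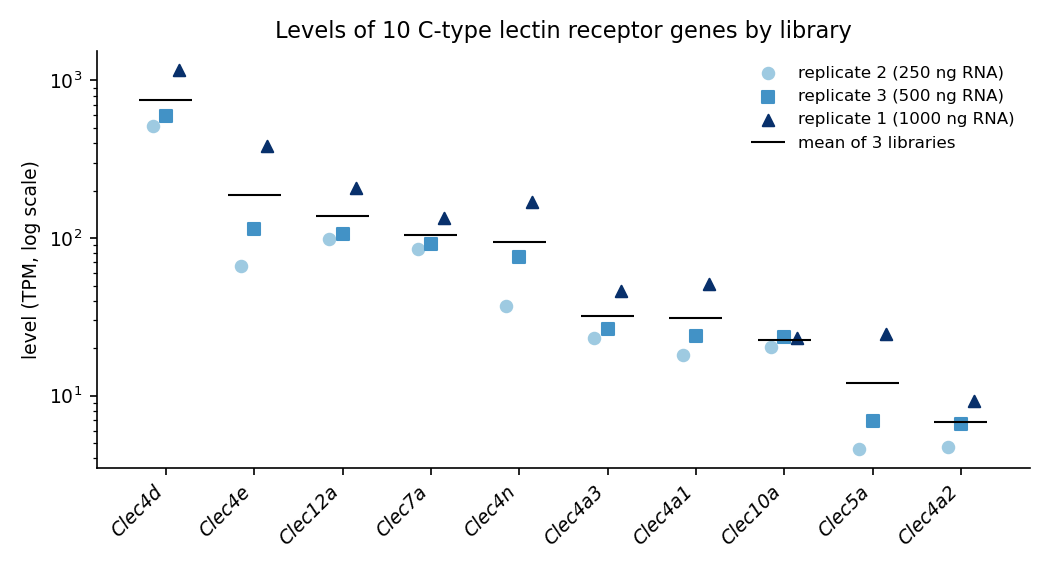
Level of each receptor gene (TPM, log scale) in the 3 libraries, with the RNA amount of each library and the mean as a line. Replicate 1 is the highest library for 9 of the 10 genes, and the 3 libraries of Clec10a lie between 20.4 and 23.7 TPM. The summed macrophage markers were also highest there (2200, 1360 and 1540 TPM in replicates 1, 2 and 3). The share of all genes with replicate 1 highest is not given here.

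Other genes of the C-type lectin family were mostly low. Of 35 further receptor genes measured, 11 reached 1 TPM, 2 reached 10 TPM and 15 had 0 counts in all libraries. A gene at 0 counts could still have held up to 0.222, 0.156 and 0.156 CPM in replicates 1, 2 and 3 (a limit of 3 counts a library, counting error only). The highest were Clec2d, a ligand of a natural killer cell receptor, at 396 ± 91.2 TPM, and the mannose receptor Mrc1 at 285 ± 31.9 TPM. Next came Clec1b, the podoplanin receptor, at 4.13 TPM and Asgr2, an asialoglycoprotein receptor subunit, at 3.29 TPM.

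Of the 10 receptor genes 9 lie on chromosome 6 of assembly mm10, and Clec10a lies on chromosome 11 (chr11:70156197-70170834, plus strand). A stretch of 368023 nt (chr6:122921848-123289870) holds Clec4a1, Clec4a3, Clec4a2, Clec4n, Clec4d and Clec4e together with 7 other annotated genes. Clec4n (chr6:123229843-123247021), Clec4d (chr6:123262111-123275265) and Clec4e (chr6:123281789-123289870) stand next to each other, and Clec4e is the only one of the 6 on the minus strand. Of the 7 other genes, Clec4a4 had 2.11 TPM, and the remaining 6 were below 1 TPM or too short to be given a level. Clec12a (chr6:129342691-129365303) and Clec7a (chr6:129461591-129472779) lie in a second stretch with 5 genes between them, of which Clec1b was the highest. Clec5a lies apart from both (chr6:40574894-40585821, minus strand). No other annotated gene overlapped 9 of the 10 receptors. The pseudogene Gm44132 lies within Clec4a2 and had 0 counts.

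**Figure D2:**
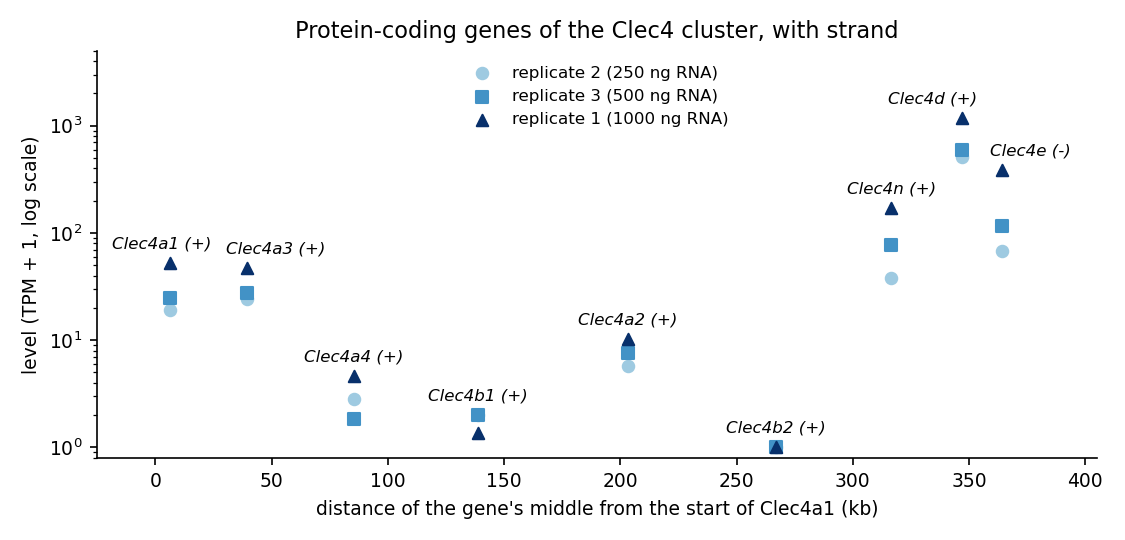
Level (TPM + 1, log scale) of the 9 protein-coding genes of the Clec4 cluster in each library, against the distance of each gene's middle from the start of Clec4a1 in kb. Clec4n, Clec4d and Clec4e sit at the right end with the highest levels, and Clec4b2 is at 0 in every library.

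Transcripts annotated as retained introns, which keep an intron or part of one, took very different shares of these genes. Such transcripts are annotated for 5 of the 10 receptors. They held 92.9%, 96.2% and 95.1% of the Clec4e counts in replicates 1, 2 and 3, a mean of 94.8% ± 1.70 (SD, n = 3). The share of Clec12a was 57.4%, 61.4% and 65.2%, a mean of 61.4% ± 3.90, and that of Clec4d was 50.1%, 49.6% and 46.8%, a mean of 48.8% ± 1.76. In shares of RSEM counts every library of Clec4e was above every library of Clec12a, and every library of Clec12a above every library of Clec4d. Clec7a followed with 10.9%, 14.8% and 13.3%, and Clec10a with 1.49%, 1.48% and 2.86%.

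Over 5990 genes with such a transcript and at least 50 expected counts, the mean share was 32.3% and the median 26.1%. Clec4e had a higher share than 98.8% of these genes, Clec12a than 83.7%, Clec4d than 73.8%, Clec7a than 30.6% and Clec10a than 6.26%. The kallisto-type table gave 87.0% for Clec4e, 64.9% for Clec12a, 46.6% for Clec4d, 13.9% for Clec7a and 6.61% for Clec10a, the same order of means. As a share of TPM, which weights short transcripts more, Clec4d at 72.3% stood above Clec12a at 60.2%. On that scale Clec4e had 87.3%, Clec7a 31.2% and Clec10a 11.6%. These shares are descriptions without a test, and whether the counts are unspliced precursor or stable RNA was not tested. The other 5 receptors have no annotated transcript of this kind, so their tables cannot show a retained intron.

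**Figure D3:**
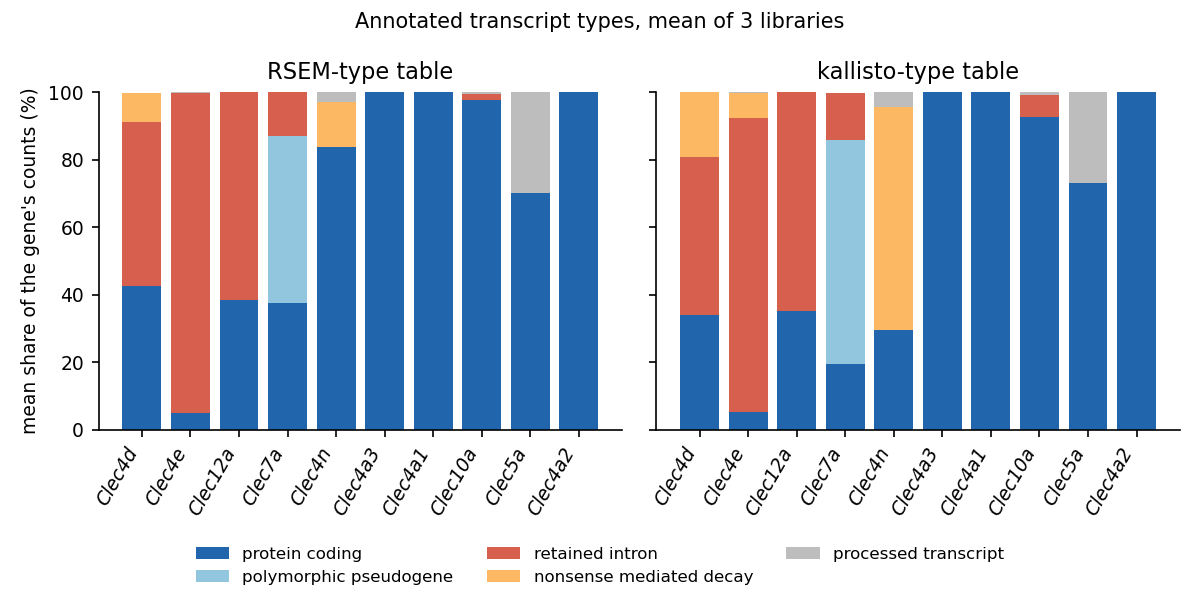
Mean share (percent) of each gene's counts on each annotated transcript type over 3 libraries, from the RSEM-type table at left and the kallisto-type table at right. Retained-intron transcripts fill most of the Clec4e bar in both tables, while the bar of Clec4n goes from 13.1% to 66.2% on the transcript annotated for nonsense-mediated decay.

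The Clec4e counts lay on transcripts that keep its second intron. That intron, counted in the coding transcript Clec4e-201, spans 2375 nt (chr6:123286519-123288893, minus strand) between coding exons. Clec4e-206 (4014 nt) keeps it whole. Clec4e-205 (4804 nt) keeps it together with the third intron of 72 nt (chr6:123286360-123286431). The edges of both introns are shown because they are where these transcripts part from the spliced one. Each window has 20 nt of exon and 20 nt of intron from the GENCODE M21 transcripts, read on the minus strand, and the capitals mark the first or last bases of the intron.
Clec4e intron 2 donor, chr6:123288874-123288913: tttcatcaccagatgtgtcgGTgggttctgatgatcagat
Clec4e intron 2 acceptor, chr6:123286499-123286538: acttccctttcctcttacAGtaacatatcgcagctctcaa
Clec4e intron 3 donor, chr6:123286412-123286451: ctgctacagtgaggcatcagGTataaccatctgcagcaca
Clec4e intron 3 acceptor, chr6:123286340-123286379: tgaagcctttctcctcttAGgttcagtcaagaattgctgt

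All 4 edges carry the usual GT and AG bases. The coding transcript Clec4e-201 held 612, 93 and 174 expected counts in replicates 1, 2 and 3, which is 6.96%, 3.66% and 4.55% of the gene. Clec4e-205 held 63.4%, 80.7% and 70.6%, and Clec4e-206 held 29.2%, 15.1% and 23.8%. Replicate 1, with the highest Clec4e level, thus had the largest share on the coding transcript and the smallest on Clec4e-205. The division between the pair of retained-intron transcripts depends on the table. The RSEM-type table gave 71.5% ± 8.72 for Clec4e-205 and 22.7% ± 7.10 for Clec4e-206, whereas kallisto-type counts gave 42.7% ± 4.43 and 44.0% ± 4.39. The coding transcript held 5.06% ± 1.71 and 4.96% ± 1.70.

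Most retained-intron counts of Clec4d and Clec12a lay on transcripts of another build, Clec4d-202 and Clec12a-202, which begin part-way inside an intron and run into the next exon. Clec4d-202 is 593 nt long, of which 270 nt are intronic, and held 48.8% ± 1.76 of the gene's counts, while the coding transcript Clec4d-201 held 42.5% ± 6.18. Clec12a-202 is 3233 nt long, of which 2606 nt lie outside the exons of the coding transcripts, and held 59.7% ± 3.64, while the coding transcript Clec12a-201 held 38.6% ± 3.90. Their intron ends are shown for comparison with those of Clec4e, on the plus strand and with the last intron bases in capitals.
Clec4d-202 acceptor, chr6:123267972-123268011: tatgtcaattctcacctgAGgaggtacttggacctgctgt
Clec12a-202 acceptor, chr6:129359388-129359427: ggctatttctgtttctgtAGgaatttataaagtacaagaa

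The kallisto-type table gave 46.6% ± 1.05 for Clec4d-202 and 61.9% ± 4.10 for Clec12a-202. For Clec12a the retained-intron transcript was above the coding one in every library of both tables. For Clec4d it was so in the kallisto-type table and in replicates 1 and 2 of the RSEM-type table, while in replicate 3 Clec4d-201 held 48.5% and Clec4d-202 held 46.8%.

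**Figure D4:**
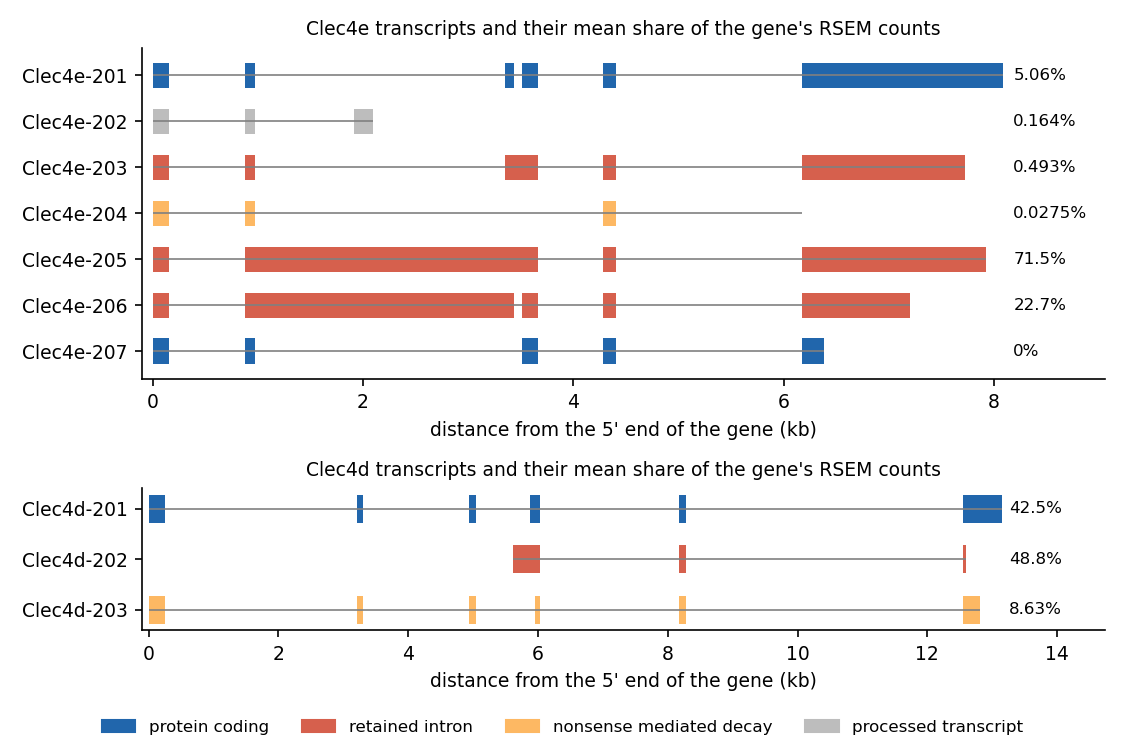
Exons (boxes) and introns (lines) of the annotated Clec4e and Clec4d transcripts against the distance from the 5' end of each gene in kb, coloured by transcript type, with each transcript's mean percent of the gene's RSEM counts. The boxes of Clec4e-205 and Clec4e-206 run through the second intron, and Clec4d-202 begins inside an intron.

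Among the receptors without a large retained-intron share, Clec4n gave the most discordant split. Clec4n-205, which is annotated for nonsense-mediated decay, held 8.57%, 7.22% and 23.5% of the counts in the RSEM-type table. The same transcript held 58.2%, 68.8% and 71.7% in the kallisto-type table, so the 2 tables do not overlap and the isoform makeup of Dectin-2 is not settled by these files. Clec7a is annotated as a polymorphic pseudogene, a locus that is coding in some individuals or strains. Clec7a-204, which carries that type, held 49.5% ± 9.44 of its counts, the full-length coding Clec7a-201 held 22.2% ± 9.21 and the shorter coding Clec7a-202 held 15.2% ± 3.12. In the kallisto-type table Clec7a-204 held 66.6%, and the share of Clec7a-201 was 1.28%. Clec7a-204 (2272 nt) and Clec7a-201 (2277 nt) differ only at exon edges, so few reads can tell them apart.

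The split of Clec5a differed between tables as well. In the RSEM-type table its coding transcript Clec5a-202 held 64.6%, 67.1% and 71.8%, and a transcript without an annotated reading frame, Clec5a-201, held 32.7%, 31.6% and 25.1%. In the kallisto-type table Clec5a-202 held 47.1%, and the shorter coding Clec5a-203 held 26.1% against 2.39% by RSEM. For the low receptors the RSEM-type table gave shares of 0 in single libraries that the kallisto-type table did not. A coding Clec4a3 transcript of 1165 nt held 0%, 33.0% and 35.4% of the Clec4a3 counts, and a coding Clec4a2 transcript of 1261 nt held 41.7%, 0% and 36.5% of the Clec4a2 counts, from totals of 70, 48 and 52 counts for Clec4a2. By kallisto-type counts the same transcripts held 24.1%, 34.9% and 46.3% of Clec4a3 and 50.3%, 37.8% and 43.8% of Clec4a2. Clec4a1 has a single annotated transcript.

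RNA amount was the labelled difference between libraries. Its slope was tested gene by gene with edgeR's quasi-likelihood test with Benjamini-Hochberg adjustment over 13993 genes. With 1 library per amount, the amount and the library cannot be told apart. Of the 10 receptors 5 rose with RNA amount at an adjusted p under 0.05, against 4.52% of all genes tested. No receptor fell at that threshold or at an unadjusted p under 0.05, in edgeR or in DESeq2, against 2.85% of all genes in edgeR and 1.32% in DESeq2. RLE size factors also called 5 higher (4.65% of all genes) and so did no filter on low counts (2.84%). A filter that knows the design called 4 (3.28%). None of these settings called a receptor lower (2.45%, 2.04% and 1.68% of all genes). All 10 passed the filter on low counts. Their median slope was 0.43 log2 units per doubling of RNA, and that of all genes was -0.01. The share of ribosomal DNA locus counts differed between the same libraries (8.46% in replicate 1, 27.1% in replicate 2), and its part in these slopes was not tested. The summed TPM of the macrophage markers was also highest in replicate 1 (2200 TPM) and lowest in replicate 2 (1360 TPM). That of the monocyte markers ran the same way (2.20 and 0.728 TPM). The sum over the genes that relay receptor signals did so too (4320 and 2700 TPM). In the scaled counts of the edgeR fit the median slope was 0.01 for the macrophage markers and -0.06 for those signalling genes. Ccr2, the only monocyte marker tested, had a slope of 0.94. The part of these markers in the receptor slopes was not tested either.

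The steepest changes were those of Clec4e, Clec5a and Clec4n. Clec4e had 602, 144 and 211 CPM in replicates 1, 2 and 3 and rose by 1.03 ± 0.13 (SE) log2 units per doubling (edgeR adjusted p = 3.19e-06). Its largest step was between replicate 1 and the others. In TPM, a scale not used in the fit, replicate 1 had 5.75 times the level of replicate 2 and 3.36 times that of replicate 3. Of all genes tested 70 had a slope at least as steep. Clec5a had 22.5, 5.68 and 7.80 CPM and rose by 1.01 ± 0.19 (edgeR adjusted p = 0.000572). Clec4n had 59.8, 16.1 and 29.4 CPM and rose by 0.95 ± 0.14 (edgeR adjusted p = 4.73e-05). In each of the 3 genes the order of the libraries followed the RNA amount.

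Clec4a1 and Clec4d rose less. Clec4a1 had 27.4, 12.5 and 15.1 CPM and a slope of 0.57 ± 0.16 (edgeR adjusted p = 0.0259). Clec4d had 255, 138 and 154 CPM and a slope of 0.44 ± 0.13 (edgeR adjusted p = 0.0281). Clec4d and Clec4a1 missed the threshold with DESeq2 (adjusted p = 0.0847 and 0.0901) and with kallisto-type counts (adjusted p = 0.195 and 0.073). Both settings called Clec4e, Clec4n and Clec5a, which is 3 of the 9 receptors with an adjusted p in DESeq2 (Clec4a2 had none) and 3 of 10 with kallisto-type counts, against 3.49% and 1.19% of all genes called higher, and no receptor lower with kallisto-type counts, against 0.486%.

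The slopes rest largely on replicate 1. From replicates 2 and 3 alone, with no test possible, they were 0.547 for Clec4e, 0.45 for Clec5a, 0.272 for Clec4a1 and 0.153 for Clec4d. From replicates 1 and 3 alone the same genes had 1.51, 1.51, 0.855 and 0.732. For each of these genes both values lay outside the standard error of its slope over all libraries, which was 1.03 ± 0.13 for Clec4e. These errors borrow variance from other genes. Clec4n had 0.861 without replicate 1 and 1.02 without replicate 2, each within its standard error of the slope over all libraries.

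The other 5 receptors did not pass the test. Clec12a had a slope of 0.38 ± 0.13 (edgeR adjusted p = 0.0655), Clec4a3 of 0.40 ± 0.18 (0.161), Clec7a of 0.30 ± 0.14 (0.18) and Clec4a2 of 0.41 ± 0.24 (0.3). Clec12a had 200, 119 and 117 CPM, so that its replicates 2 and 3 were almost level. Clec10a had 13.1, 13.4 and 13.1 CPM and a slope of -0.02 ± 0.18 (edgeR adjusted p = 0.964).

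The genes that relay signals from these receptors were measured beside them. Of 22 such genes 21 reached 1 TPM, 18 reached 10 TPM and 8 reached 100 TPM, with a median of 59.5 TPM. The highest were the kinase Syk at 593 ± 138 TPM, the kinase Prkcd at 567 ± 183, the paracaspase Malt1 at 515 ± 354, the phosphatase Inpp5d (SHIP1) at 433 ± 26.7 and the exchange factor Vav3 at 205 ± 30.4 TPM. The lowest were Trim62, a ubiquitin ligase that acts on Card9, at 2.45 TPM and the kinase Fgr at 0.338 TPM. The adaptors Fcer1g at 58.6 ± 3.56 TPM and Tyrobp at 48.6 ± 3.84 TPM and the scaffold protein Card9 at 98.2 ± 12.4 TPM are given for their role and were chosen after their values were seen. The adaptors spread little between libraries, with Fcer1g at 61.9, 54.8 and 59.0 TPM and Tyrobp at 52.8, 45.3 and 47.7 TPM.

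Of the 21 signalling genes tested 2 (9.52%) rose with RNA amount in edgeR, against 4.52% of all genes tested. They were Malt1 and Bcl10, which share a scaffold with Card9. Card9 itself had a slope of -0.29 ± 0.15 (edgeR adjusted p = 0.233). Malt1 had 922, 279 and 345 TPM and a slope of 0.61 ± 0.13 (edgeR adjusted p = 0.00344). Bcl10 had 109, 45.3 and 53.0 TPM and a slope of 0.47 ± 0.14 (edgeR adjusted p = 0.0373). None of the 21 fell at the threshold, against 2.85% of all genes, and 1 was lower at an unadjusted p under 0.05. DESeq2, with an adjusted p for 18 of them, called Malt1 alone higher and none lower, against 3.49% and 1.32% of all genes. Kallisto-type counts called neither Malt1 nor Bcl10. The median slope of the signalling genes was -0.06 log2 units per doubling. Of the 11 further C-type lectin genes that passed the filter none rose or fell at the threshold in edgeR, against 4.52% and 2.85% of all genes. Most of the 11 had few counts, so the test could miss a rise. The highest slope among them was 0.75 ± 0.28, on 48, 22 and 17 counts in replicates 1, 2 and 3. Their median slope was 0.14. At an unadjusted p under 0.05, 1 of the 11 was higher. DESeq2 gave an adjusted p for 2 of them and called neither. Among the cell type markers Ccr2 was called higher in edgeR with 45, 15 and 26 counts. With kallisto-type counts and with the filter that knows the design it was not called, and DESeq2 gave it no adjusted p. None of the 8 macrophage markers was called in edgeR or DESeq2, with 1 higher at an unadjusted p under 0.05. The share of all genes at an unadjusted p under 0.05 is not given here.

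**Figure D5:**
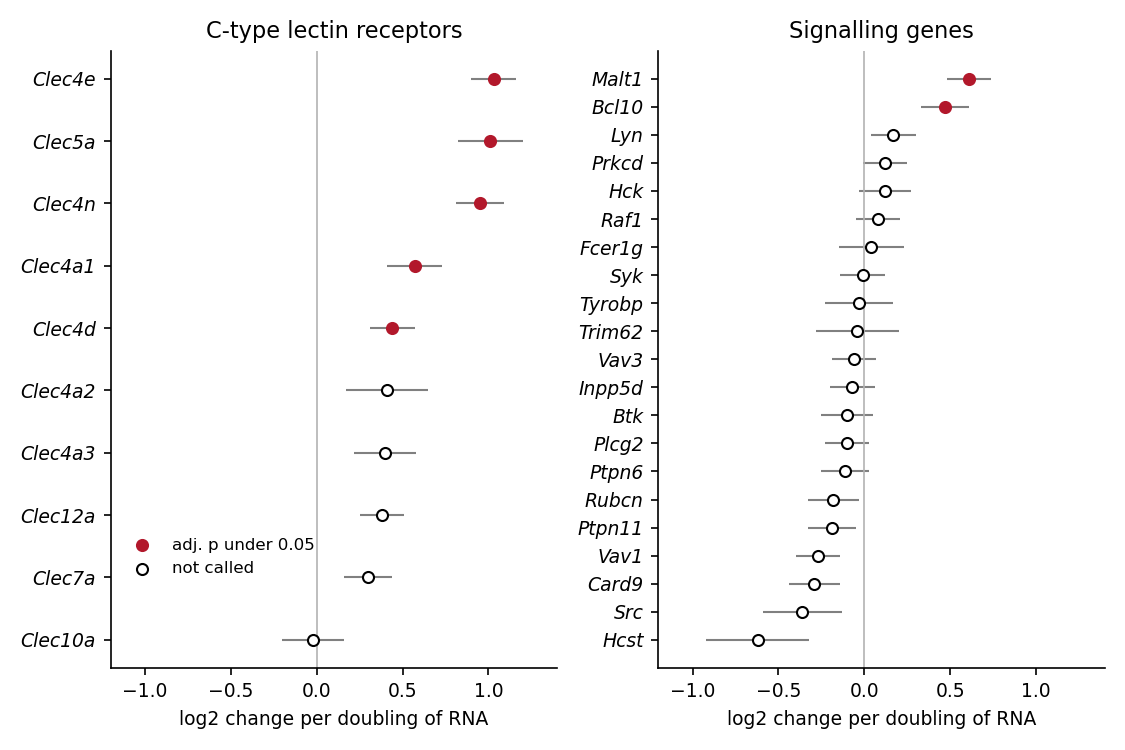
Change with RNA amount (log2 units per doubling, point and standard error) of the 10 receptors at left and 21 signalling genes at right, with filled points for an adjusted p under 0.05. The receptors Clec4e, Clec5a and Clec4n lie near 1, and the signalling genes called are Malt1 and Bcl10.

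The genes nearest to Clec4e in level over the 3 libraries, by Euclidean distance of log2(TPM + 1), were Arl5c and Cacfd1. Arl5c, a small GTPase of the ARF-like family, had 466, 69.4 and 142 TPM at a distance of 0.425. Cacfd1, a membrane protein with a calcium channel flower domain, had 491, 74.2 and 136 TPM at a distance of 0.462. The likeness rests on 3 libraries.

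Promoter sequences were matched by symbol in RefSeq (build GRCm38.p6) for 8 of the 10 receptors, with 10 entries in all. Those of Clec4e and Clec5a, the genes with the steepest slopes, are shown as the 250 nt before the annotated start, read 5' to 3' on the minus strand, with motif matches in capitals.
Clec4e, chr6:123289872-123290121: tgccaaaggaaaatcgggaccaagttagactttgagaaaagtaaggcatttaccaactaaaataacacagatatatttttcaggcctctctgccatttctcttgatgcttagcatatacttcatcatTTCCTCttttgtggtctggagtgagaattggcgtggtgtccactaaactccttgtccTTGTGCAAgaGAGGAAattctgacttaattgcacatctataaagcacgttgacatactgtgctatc
Clec5a, chr6:40585806-40586055: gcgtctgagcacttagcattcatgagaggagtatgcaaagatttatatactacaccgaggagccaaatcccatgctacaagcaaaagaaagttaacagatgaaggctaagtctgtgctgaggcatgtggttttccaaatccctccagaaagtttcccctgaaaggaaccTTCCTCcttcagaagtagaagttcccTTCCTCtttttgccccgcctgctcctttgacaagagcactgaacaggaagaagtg

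The capitals mark the myeloid factor motif PU.1 (GAGGAA) at 2 places in each window and, in Clec4e, 1 C/EBP motif (TTGCNNAA), searched on both strands, and no marked match overlaps another. Among the 10 entries the PU.1 motif was found in 8, against 23.3% of 32851 promoters of the same length. The C/EBP motif was found in 2, Clec4e and Clec12a, against 9.56%. The AP-1 motif (TGANTCA) was found in 1, Clec12a, against 6.75%, and an NF-kB motif of 10 letters in 0, against 4.65%. The 10 entries include overlapping windows of the same gene for Clec4a3 and Clec7a, and a match describes letters, not binding.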

How the data were processed

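Per the file headers, the authors deposited RSEM-type gene and transcript tables with expected counts and TPM, and a kallisto-type transcript table with estimated counts and TPM, on mm10 with annotation M21. Aligner, versions and strand setting: not given in the sources used here. The 10 genes, the gene lists and the tests were chosen with earlier results of these data known.

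Levels were recomputed by dividing each expected count by the effective length, scaled to TPM over genes of at least 300 nt, since small RNAs and other entries held 67.1%, 62.1% and 61.7% of the deposited TPM. Without strand, reads of antisense partners could not be told apart. The retained-intron share is the part, in percent, of the RSEM counts of a gene that fell on transcripts so annotated. Rounded expected counts were fitted on log2 RNA amount with edgeR 4.0.16 (TMM factors 1.11, 0.931 and 0.964, filterByExpr without a design, quasi-likelihood test) in R 4.3.3. The fit has 1 residual degree of freedom per gene, so its errors rest largely on variance shared across genes. It was also run on simulated data, and the outcome is not given here. Standard errors come from the slope and its F statistic. Alternatives used DESeq2 1.42.0, RLE size factors, no filter, kallisto-type counts, deposited TPM, CPM, other count minimums and leaving out each replicate. A filter with the design, and length as merged exons, were added after seeing the data. Beside the 10 genes, the text names the 4 highest further receptors, the 5 highest and 2 lowest signalling genes and those called, each marker list's highest and defining genes, and the 2 genes nearest Clec4e. Python 3.11.15 with pandas 2.3.3, numpy 2.4.6 and matplotlib 3.10.9 served the remaining steps.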

Additional observations from a re-analysis of the deposited data

How the results depend on the processing

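The count of receptors at 10 TPM or more was 9, and it stayed between 7 and 10 under deposited TPM, the kallisto-type table, removal of ribosomal DNA locus genes and both CPM scales. It was 8 to 9 when a replicate was left out. The ratio of Clec4d to Clec4e turned from 4.03 to 0.572 in CPM, where gene length is not used, and ran from 3.54 to 6.11 with a replicate left out. The count of receptors called higher with RNA amount fell from 5 to 3 with DESeq2 and 3 with kallisto-type counts, and was 5 with RLE size factors, 5 with no filter and 4 with the added filter, where Clec4d had an edgeR adjusted p of 0.0516. The cause was not tested. The median retained-intron share of the 5 receptors with such a transcript was 48.8%, 46.6% by kallisto-type counts and 60.2% as a share of TPM. It was 48.2% to 49.8% with a replicate left out. By kallisto-type counts, the share on Clec4e-205 moved from 71.5% to 42.7%, on Clec4d-202 from 48.8% to 46.6% and on Clec4n-205 from 13.1% to 66.2%. The cause was not tested. No paired analysis was possible because the libraries form 1 group. Clec4a2 had 48 to 70 expected counts a library, the fewest of the 10 genes.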
